A study of Mus musculus with 12 samples.

Results

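The 10 genes described here encode enzymes and carriers that break down long- and medium-chain fatty acids in mitochondria: Cpt1a, Slc25a20, Cpt2, Acadvl, Acadl, Acadm, Hadha, Acaa2, Eci1 and Decr1. They were chosen by name for their place in the pathway, and each was read from its brightest probeset, the set of short probes on the array that measures 1 transcript region. All 10 were named by at least 1 probeset with a single gene and all 10 passed the filter on dim probesets, out of 11899 genes tested. In GRCm38.p6 they lie on chromosomes 19 (Cpt1a), 9 (Slc25a20), 4 (Cpt2 and Decr1), 11 (Acadvl), 1 (Acadl), 3 (Acadm), 5 (Hadha), 18 (Acaa2) and 17 (Eci1). The treated livers came from 6 male C57BL/6 mice given low-dose penicillin in drinking water after weaning, and the others from 6 male C57BL/6 mice given no antibiotic. Both groups were bought from 1 supplier, ate and drank freely under a regular light cycle and were killed after 7 weeks of intervention. RNA of a resected liver specimen was hybridised to 1 Affymetrix array per mouse. Not given in the sources used here are the dose, the age, the cages and the hour of collection. Each array is 1 mouse, so p-values measure the spread between these mice. Values are log2 probeset intensities, and a difference is penicillin minus control on that scale.

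Fatty acids reach the mitochondrial matrix as carnitine esters. CPT1A, the liver form of carnitine palmitoyltransferase, makes the ester at the outer membrane and is the regulated entry step, SLC25A20 carries it across the inner membrane, and CPT2 turns it back into acyl-CoA. Each turn of the matrix spiral then oxidises, hydrates, oxidises and cleaves the chain, and unsaturated fatty acids need helper enzymes that move or reduce their double bonds. In liver these genes are classic targets of the nuclear receptor PPAR-alpha, and their use rises in fasting.

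Most of these genes stood slightly higher in penicillin livers, and none passed the test over all genes. Of the 10 members, 9 were higher, by 0.07 to 0.29, and Cpt1a differed by -0.02. The median difference of the members was 0.13, beside 0.01 over all genes. A difference above 0 was found for 52.8% of all genes tested. By limma with Benjamini-Hochberg adjustment, 0 members passed at a threshold of 0.05, as did 0% of all genes (smallest adjusted p among members 0.434, over all genes 0.265). An unadjusted p under 0.05 as higher was reached by 4 of the 10 members, Eci1, Decr1, Acadl and Slc25a20, and by 4.33% of all genes. As lower it was reached by 0 members and 3.66% of all genes, and in either direction by 4 members and 7.98% of all genes. In 0 members did all 6 penicillin arrays lie beyond all 6 controls, against 0.412% of all genes.

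Of 10 tested hepatocyte markers of 12 listed, 9 stood at 12.96 or more in both groups, and Ass1 at 7.40 in penicillin and 6.93 in control livers. Of the 10, 8 were lower with penicillin, with a median difference of -0.02 and a range of -0.24 to 0.47. Alb stood at 14.97 in penicillin and 15.00 in control livers, and Apoa1 at 14.80 in penicillin and 14.81 in control livers. Fewer cells of a type and less RNA per cell cannot be told apart in such samples. Any 2 arrays correlated at 0.980 to 0.997 over genes, and the closest pair, control 1 and control 3, still had a median absolute difference of 0.10. Controls 1, 3 and 5 stood apart by their immediate early genes, the genes that cells switch on within minutes of a stimulus: the mean of 18 such genes stood at 1.20 to 2.00 above its 12-array mean in them, at -0.73 to -0.22 in the other controls and at -0.81 to -0.41 in penicillin livers. Of these 18 genes, 17 were lower with penicillin. All 3 tested neutrophil markers of 9 listed were lower too. Their mean deviation from the 12-array mean was -1.11 to -0.35 in penicillin livers and -0.23 to 1.66 in controls. Of these, S100a9 had log2 values of 4.91 to 5.78 in penicillin livers and 5.82 to 8.44 in controls. So were all 4 tested cholangiocyte markers of 8 listed lower, with mean deviations of -0.53 to 0.08 in penicillin livers and 0.07 to 0.27 in controls. The part of neutrophils and cholangiocytes in the results below was not tested, and values with and without controls 1, 3 and 5 are given there.

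**Figure D1:**
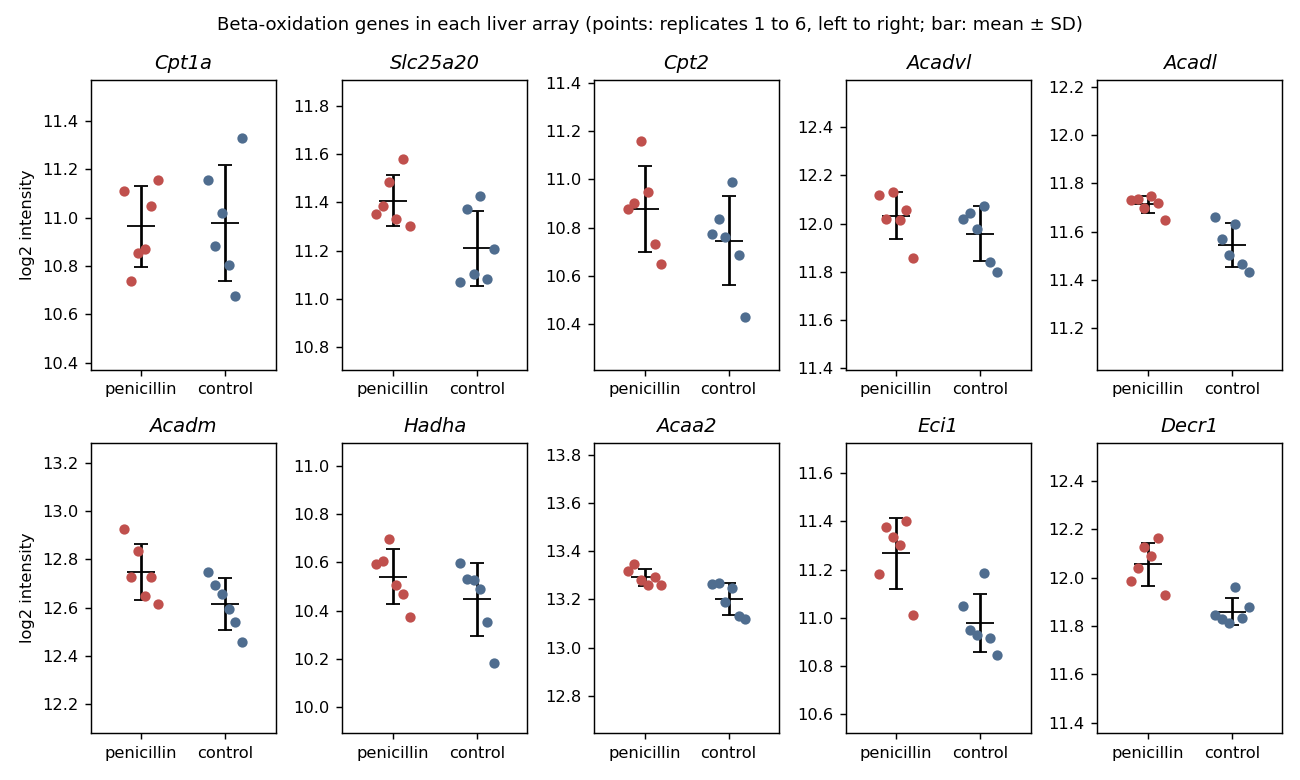
Log2 intensity (vertical axis, spanning the same range in each panel) of each gene in the 6 penicillin and the 6 control arrays, with points for replicates 1 to 6 from left to right and bars for the mean ± SD. The groups overlap in every panel, least for Acadl and Decr1, where 5 of 6 penicillin arrays lie above the highest control.

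The promoters of the members are described as sequence context only, and regulation through them was not tested. The 4 shown were picked for the entry enzyme, which differed by -0.02 with an SE of 0.11 (Cpt1a), the medium-chain enzyme (Acadm), the subunit whose promoter lies between 2 partner genes (Hadha) and the member with the largest difference (Eci1). RefSeq's promoter table (GRCm38.p6) held 8 of the 10 members, and each sequence is the 250 bases before the start that the table gives, read 5′ to 3′ on the gene's strand. For Cpt1a that start lies inside the annotated gene, which RefSeq's gene table begins at 3322326, so its window belongs to a start further in; for the other 7 the window ends where the annotated gene begins. Capitals mark the half-site AGGTCA, bound by PPAR-alpha and other nuclear receptors, and the GC box GGGCGG, bound by Sp1 family factors, on either strand.
Cpt1a, chr19:3323051-3323300, plus strand: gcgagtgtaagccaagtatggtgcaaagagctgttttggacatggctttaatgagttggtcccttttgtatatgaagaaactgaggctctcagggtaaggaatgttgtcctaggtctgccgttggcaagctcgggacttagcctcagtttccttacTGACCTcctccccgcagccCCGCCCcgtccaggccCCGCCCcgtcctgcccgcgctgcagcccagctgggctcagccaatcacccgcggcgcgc
Acadm, chr3:153944644-153944893, minus strand: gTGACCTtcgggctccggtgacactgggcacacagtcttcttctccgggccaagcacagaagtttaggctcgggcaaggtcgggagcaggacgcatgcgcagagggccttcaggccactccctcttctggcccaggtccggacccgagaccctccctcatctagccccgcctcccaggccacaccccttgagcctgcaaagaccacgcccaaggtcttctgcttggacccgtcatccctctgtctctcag
Hadha, chr5:30154981-30155230, minus strand: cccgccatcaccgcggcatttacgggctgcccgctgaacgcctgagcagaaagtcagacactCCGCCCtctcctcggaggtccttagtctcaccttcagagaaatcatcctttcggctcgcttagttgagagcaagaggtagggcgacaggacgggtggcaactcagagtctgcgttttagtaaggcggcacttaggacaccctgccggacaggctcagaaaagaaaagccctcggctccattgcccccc
Eci1, chr17:24426433-24426682, plus strand: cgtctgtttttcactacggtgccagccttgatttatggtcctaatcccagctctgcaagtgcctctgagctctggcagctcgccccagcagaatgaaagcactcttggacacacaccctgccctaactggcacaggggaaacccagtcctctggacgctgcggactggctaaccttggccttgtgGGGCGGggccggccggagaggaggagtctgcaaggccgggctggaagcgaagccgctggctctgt

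The half-site AGGTCA was found in 3 of the 8 member windows, those of Cpt1a, Acadvl and Acadm, and in 14.0% of all 32851 windows of that length in the table. It lay 88 bases before the inner start of Cpt1a, 81 before the start of Acadvl and 243 before that of Acadm. A pair of half-sites in tandem with 1 base of any kind between them, the textbook response element of PPAR-alpha, occurred in 0 of the 8 windows and in 0.0335% of all. The GC box was found in 6 of the 8, all but Acadvl and Acadm, and in 32.7% of all windows. The E-box CACGTG of the clock activators and the D-box TTATGTAA of Dbp and its relatives were found in 0 of the 8, and in 6.02% and 0.819% of all windows. Both strands were searched for exact matches only, so variants of a motif were not counted, and of these motifs the paired element contains the half-site. The paired element is so rare in this search that 0 of 8 says little about the members. The windows of the members were 49.6% to 68.0% G or C, with a median of 59.2%, against 52.4% over all windows. Hadha lies head to head with Hadhb, which encodes the partner subunit of the same protein complex: the starts are 272 bases apart, so the sequence printed for Hadha is almost the whole stretch between them.

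The differences of the carnitine genes ran from -0.02 for Cpt1a to 0.20 for Slc25a20. Their 95% intervals overlapped, and the difference between their differences was not tested. Cpt1a had a lowest, median and highest value of 10.74, 10.96 and 11.16 in penicillin livers, against 10.68, 10.95 and 11.33 in control livers. The groups covered nearly the same range, and both the highest and the lowest array, control 6 and control 5, were controls. The difference was -0.02 (SE 0.11, 95% interval -0.26 to 0.23, adjusted p = 0.985 by limma), which leaves room for a change of 0.837-fold to 1.17-fold. A pair of other Cpt1a probesets gave -0.01 and 0.03.

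Slc25a20, the carnitine-acylcarnitine carrier, stood at 11.30, 11.37 and 11.58 (lowest, median, highest) in penicillin livers and at 11.07, 11.16 and 11.42 in control livers. Its 4 low controls, 1, 3, 5 and 6, lay under all penicillin arrays, while controls 2 and 4 lay among them. The carrier differed by 0.20 (SE 0.08, adjusted p = 0.584 by limma), and its other probeset by 0.23. The carrier's difference was 0.07 (SE 0.08) without controls 1, 3 and 5, and 0.05 (SE 0.08) with the mean of the immediate early genes as a covariate. That mean was high only in control arrays, so its part cannot be told apart from that of the group and was not tested.

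Cpt2, which rebuilds acyl-CoA inside the membrane, stood at 10.65, 10.89 and 11.16 in penicillin livers against 10.43, 10.77 and 10.99 in control livers. The groups overlapped widely, and the difference of 0.13 (SE 0.10, adjusted p = 0.791 by limma) was 0.07 without control 6, the lowest array. The order of the arrays for Cpt2 ran against that for Cpt1a, with control 6 at opposite ends.

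Chain-shortening begins with the acyl-CoA dehydrogenases, which differ in the chain length they take. Acadvl, the enzyme for very long chains, stood at 11.86, 12.04 and 12.13 in penicillin livers and 11.80, 12.00 and 12.07 in control livers, a difference of 0.07 (SE 0.07, adjusted p = 0.830 by limma) that was 0.04 without control 6. Its groups overlapped over nearly their whole range. Acadl, the long-chain enzyme, stood at 11.65, 11.72 and 11.75 in penicillin livers and 11.43, 11.54 and 11.66 in control livers. Its penicillin arrays were close together (SD 0.04, n = 6, beside 0.09 in controls), and the single overlap was control 1 above penicillin 6. The Acadl difference was 0.17 (SE 0.05, 95% interval 0.06 to 0.28, adjusted p = 0.519 by limma), 1.12-fold.

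Acadm, the medium-chain enzyme, whose loss in people causes a well-known inborn error of fasting metabolism, stood at 12.62, 12.73 and 12.93 in penicillin livers against 12.46, 12.63 and 12.75 in control livers. Penicillin 1 and penicillin 3 lay above all controls, and the other arrays mixed. It differed by 0.13 (SE 0.07, adjusted p = 0.676 by limma), and by 0.10 without penicillin 1. Among these 3 dehydrogenases, then, the 95% intervals overlapped, and the difference between their differences was not tested.

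The later steps of the spiral gave small differences. Hadha, the subunit of the trifunctional protein that hydrates and again oxidises long chains, stood at 10.37, 10.55 and 10.70 in penicillin livers and 10.18, 10.51 and 10.60 in control livers. The difference of 0.09 (SE 0.08, adjusted p = 0.817 by limma) rested partly on control 6, without which it was 0.04. Its partner Hadhb, the thiolase subunit encoded head to head with it, differed by 0.10 (SE 0.06, adjusted p = 0.719). Acaa2, the thiolase that cleaves medium chains, varied least of all members, at 13.26, 13.29 and 13.34 in penicillin livers against 13.12, 13.22 and 13.27 in control livers. Of its penicillin arrays 4 lay above the highest control. Acaa2 differed by 0.09 (SE 0.05, adjusted p = 0.676 by limma), 1.06-fold, and its other probesets by 0.10 and 0.15.

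The helper enzymes for unsaturated fatty acids had the smallest unadjusted p-values among the members (0.00276 for Eci1 and 0.00299 for Decr1 by limma), and Eci1 had the largest difference. Eci1, which shifts double bonds into the position the spiral needs, stood at 11.01, 11.32 and 11.40 in penicillin livers against 10.85, 10.94 and 11.19 in control livers. Of 6 penicillin arrays, 4 lay above the highest control, control 4, while penicillin 1 lay just under it and penicillin 6 lay under control 1 too. The difference was 0.29 (SE 0.08, 95% interval 0.12 to 0.46, adjusted p = 0.434 by limma), 1.22-fold. Decr1, the reductase that removes conjugated double bonds, stood at 11.93, 12.06 and 12.16 in penicillin livers against 11.81, 11.84 and 11.96 in control livers. The overlap came from penicillin 6 and control 4. Decr1 differed by 0.20 (SE 0.05, 95% interval 0.08 to 0.31, adjusted p = 0.434 by limma), and its second, dimmer probeset by 0.36 (8.89 ± 0.13 in penicillin and 8.53 ± 0.19 in control livers, SD, n = 6 each).

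**Figure D2:**
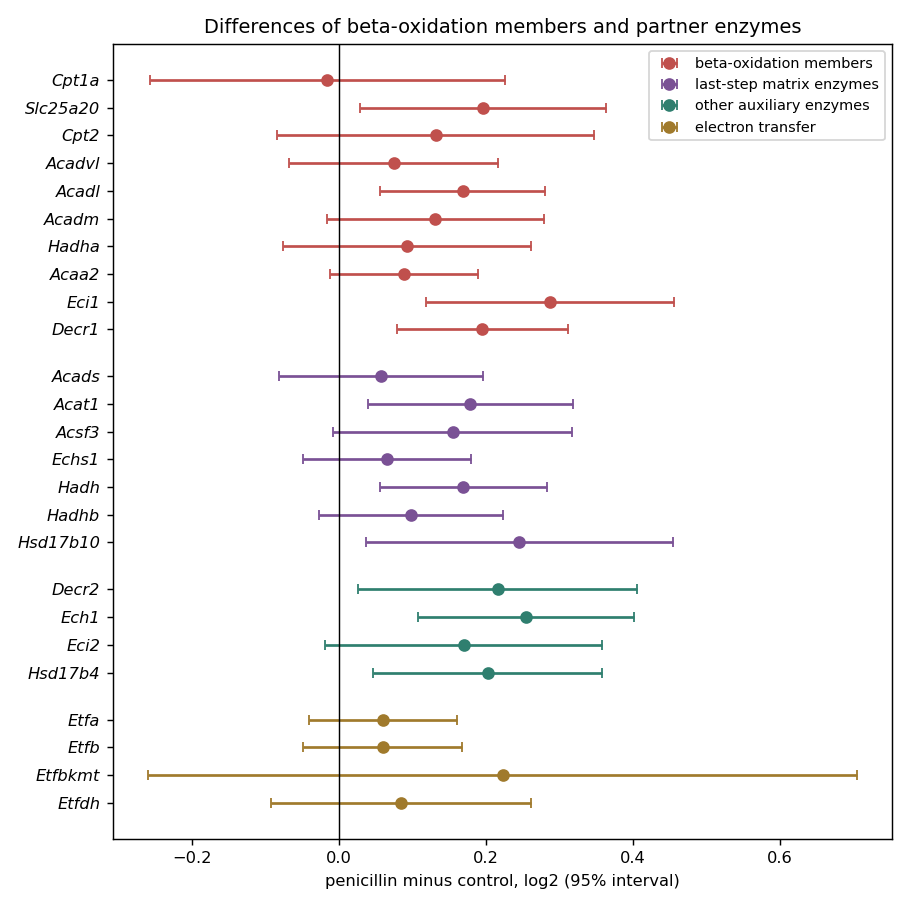
Difference between penicillin and control livers on the log2 scale (horizontal axis; points, with 95% intervals from limma) for the 10 members and for 3 groups of partner genes. Eci1 lies furthest to the right among the members at 0.29, Cpt1a lies at -0.02, and the 4 auxiliary enzymes lie between 0.17 and 0.26.

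Partner enzymes of the pathway that are not members stood higher as well. Of all genes tested, 52.8% were higher and 4.33% had an unadjusted p under 0.05 as higher, the shares to set beside the counts here. Of 7 enzymes of short chains and last steps, 7 were higher and 3 had an unadjusted p under 0.05: Hadh, the short-chain hydroxyacyl-CoA dehydrogenase (0.17, SE 0.05), Acat1, the mitochondrial acetoacetyl-CoA thiolase (0.18, SE 0.06), and Hsd17b10 (0.25, SE 0.10). The hydratase Echs1 (0.07) and the short-chain dehydrogenase Acads (0.06) differed less. All 4 tested auxiliary enzymes were higher, of which Ech1 (0.26, SE 0.07), the peroxisomal reductase Decr2 (0.22, SE 0.09) and the peroxisomal multifunctional enzyme Hsd17b4 (0.20, SE 0.07) had an unadjusted p under 0.05 and Eci2 (0.17) did not. Electron transfer from the dehydrogenases showed small values, with Etfa, Etfb and Etfdh higher by 0.06, 0.06 and 0.08 and 0 of 4 genes at an unadjusted p under 0.05. The fourth, Etfbkmt, which modifies ETFB, had a wide error (0.22, SE 0.22). Adjusted over all genes, 0 of these passed.

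Entry and export of fatty acids gave a mixed picture, beside 52.8% of all genes that were higher and 4.33% with an unadjusted p under 0.05 as higher. Of 10 tested activating enzymes and transporters, 6 were higher, with a median of 0.03. Acsm3, a medium-chain acyl-CoA synthetase, was higher by 0.22 (SE 0.05, adjusted p = 0.316 by limma). Its groups did not overlap, as for 0.261% of all genes in that direction. Acsm5 was higher by 0.19, and the long-chain synthetase Acsl3 differed by -0.42 (SE 0.16). Of 5 tested genes of carnitine handling, 4 were higher and 0 reached an unadjusted p under 0.05; Bbox1, the last enzyme of carnitine synthesis, differed by 0.14, the carnitine transporter Slc22a5 by 0.23, and the acetyltransferase Crat by 0.06. Among 8 dehydrogenases of branched and other chains, 6 were higher, and 1, Ivd of leucine breakdown (0.14, unadjusted p = 0.0426 by limma), had an unadjusted p under 0.05, while Acad11 (0.18) and Acad12 (0.15) differed by more. Genes of ketone bodies, the main product of this pathway in fasting liver, gave 2 of 3 higher, with Bdh1 at 0.09, Bdh2 at 0.14 and Oxct1, which serves ketone use, at -0.19.

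Of the 21 regulators tested, 17 were higher (52.8% of all genes), with a median of 0.11. An unadjusted p under 0.05 was reached by 4 as higher (4.33% of all genes) and by 1 as lower (3.66% of all genes). The median was 0.06 without control 5 alone. Without controls 1, 3 and 5 it was 0.06, with 12 of 21 higher, and 0 had an unadjusted p under 0.05 (1.85% of all genes as higher). With the mean of the immediate early genes as a covariate the median was 0.05, with 14 higher, the highest value was 0.59 beside 0.63, and 0 had such a p (2.08% of all genes as higher). Ppara itself differed by 0.13 with a wide error (SE 0.21), and its coactivator gene Ppargc1a by -0.30 (SE 0.19). Smaller p-values belonged to Pparg (0.63, SE 0.17), the mitochondrial deacylase Sirt5 (0.23, SE 0.08) and Ppargc1b (0.61, SE 0.24), none of which passed (adjusted p = 0.430, 0.570 and 0.585 by limma). Acacb, the carboxylase whose product malonyl-CoA inhibits CPT1, differed by 0.13 (SE 0.20).

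Other PPAR-alpha targets showed larger differences than the mitochondrial members. Of 18 tested, 17 were higher (52.8% of all genes), with a median of 0.27. An unadjusted p under 0.05 as higher was reached by 8 of them, against 4.33% of all genes. Among the 8 were Acaa1a, a peroxisomal thiolase (0.25, SE 0.07), the thioesterase Acot2 (0.37, SE 0.11) and Cyp4a12a (0.50, SE 0.16). Without controls 1, 3 and 5, 1 of the 18 had an unadjusted p under 0.05 as higher (1.85% of all genes), with 16 higher and a median of 0.21, and with the immediate early covariate 1 of 18 did (2.08% of all genes), with 16 higher and a median of 0.19. The peroxisomal bifunctional enzyme Ehhadh differed by 0.27 (SE 0.16). Genes of the citric acid cycle and of mitochondrial content, which share the compartment, gave a median of 0.04, with 18 of 24 higher (52.8% of all genes). Of these 24, 1, Dlst, had an unadjusted p under 0.05 as higher (0.12, SE 0.05), against 4.33% of all genes. No test was made between these lists, and the comparison of their medians is a description. These gene lists, like the members, were not chosen independently of earlier results of the same arrays.

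**Figure D3:**
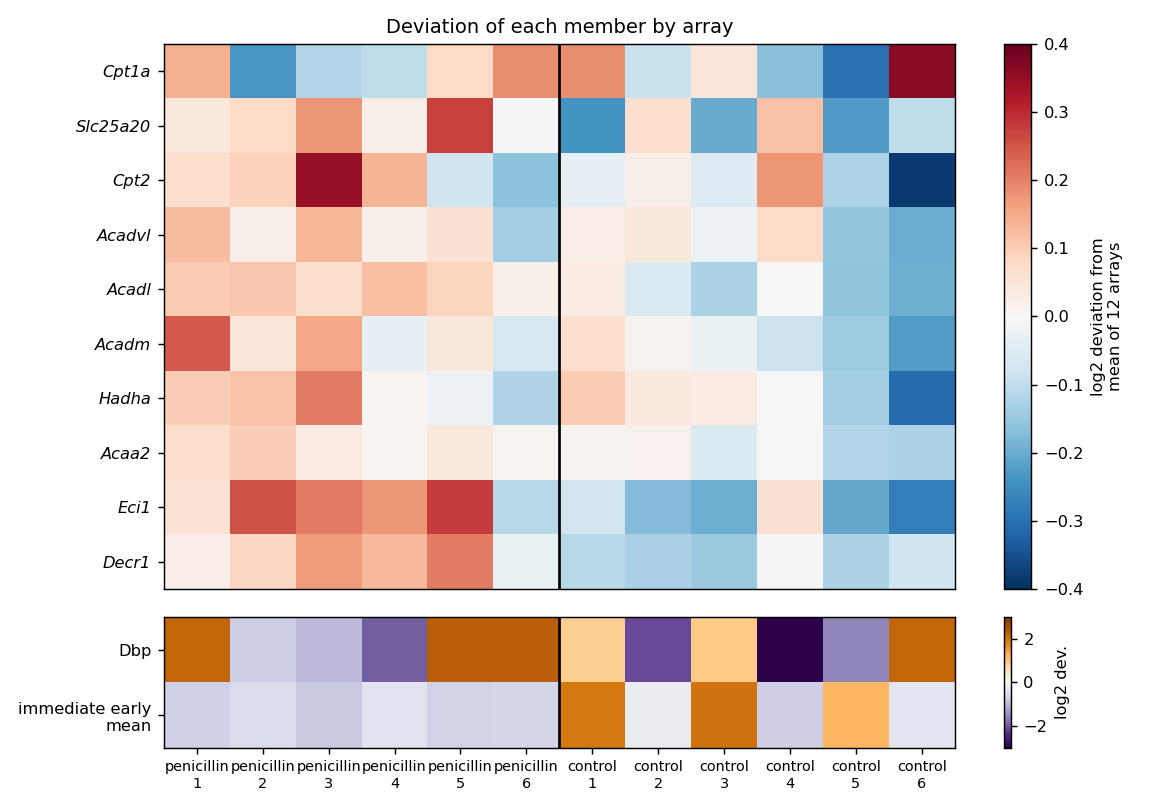
Deviation of each member from its mean over the 12 arrays (log2, upper panel, red above and blue below), with the clock output gene Dbp and the mean of the immediate early genes under it on a wider scale (orange above, purple below). Controls 5 and 6 are blue for nearly all members, while Cpt1a is darkest red in control 6.

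Single mice carried much of the spread. Over the 10 members the mean deviation ran from -0.04 in penicillin 6 to 0.14 in penicillin 3, against -0.17 in control 5 to 0.02 in control 4. Control 6 was the lowest array of 7 members and the highest for Cpt1a, and control 5 was among the 3 lowest arrays for all 10. Without control 6 the median difference of the members was 0.09, the lowest of any single omission, and without penicillin 6 it was 0.17, the highest. Under all 26 alternative fits Acadl, Eci1 and Decr1 kept an unadjusted p under 0.05 as higher. The ranges were 0.15 to 0.19 for Acadl, 0.26 to 0.34 for Eci1 and 0.16 to 0.36 for Decr1. The top Decr1 value, 0.36, is that of its second, dimmer probeset. The smallest adjusted p of any member under any of these fits was 0.216.

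Because controls 1, 3 and 5 differed so much in immediate early genes, the comparison was repeated without them. The members' median was again 0.13, 9 of 10 were higher, and 3, Acadl, Eci1 and Decr1, had an unadjusted p under 0.05 as higher, against 1.85% of all genes. With the mean of the immediate early genes as a covariate the same 3 members were left, against 2.08% of all genes. For the partner enzymes of short chains and last steps, 1 of 7 reached that level without the 3 controls, with a median of 0.13 beside 0.16 with all arrays, and 3 of 7 did with the covariate, with a median of 0.14. Of the auxiliary enzymes, 1 of 4 did in both fits, with medians of 0.14 without the controls and 0.13 with the covariate, beside 0.21. In both fits all of these 11 genes stayed higher.

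Apart from the group difference, 9 of the members varied together across mice and Cpt1a did not. After each group's mean was subtracted, 35 of 36 pairs among the 9 had a Pearson r above 0 over the 12 arrays (median 0.56, highest 0.86 for Acadvl with Hadha), and all 9 pairs with Cpt1a were below 0 (from -0.64 with Cpt2 to -0.03 with Acadm). Acadvl followed the mean of the other 9 most closely (Pearson r 0.95, Spearman rho 0.90, and r 0.91 without the 2 arrays furthest from the median). Slc25a20 (r 0.44, rho 0.31) and Decr1 (r 0.42, rho 0.31) followed it less. Cpt1a had an r of -0.39 and a rho of -0.38. Its r turned to 0.23 without the 2 arrays furthest from the median, which were picked anew for each member. The opposition of Cpt1a rests on the 2 arrays picked for it. These values share the same 12 hybridisations and are given as a description, without p-values.

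**Figure D4:**
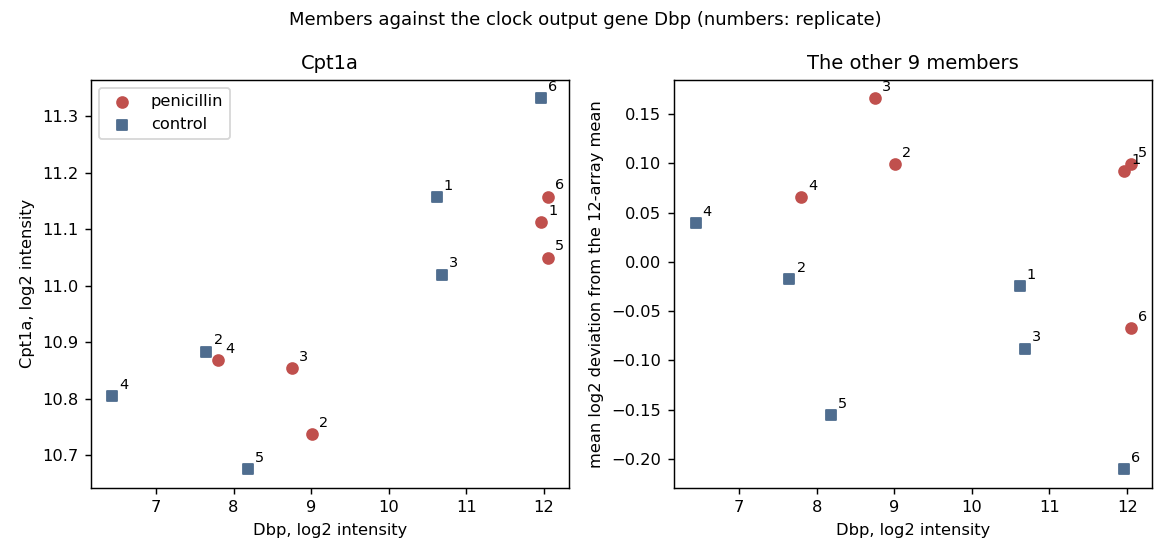
Cpt1a (left, log2 intensity) and the mean deviation of the other 9 members (right, log2) against Dbp (horizontal axis, log2 intensity) in each array, with replicate numbers beside the points and separate symbols for penicillin and control. The 6 arrays with Dbp at 10.62 or more have the 6 highest Cpt1a values, from 11.02 up, and the other 6 lie at 10.88 or lower.

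The arrays fell into 2 sets by Dbp. This gene, an output gene of the circadian clock that swings widely over the day, stood at 10.62 to 12.05 in penicillin 1, 5 and 6 and controls 1, 3 and 6, and at 6.44 to 9.01 in the other 6, with the clock activator Arntl running the other way. The same 6 arrays were the 6 highest for Cpt1a on its brightest probeset, at 11.02 to 11.33, while the others stood at 10.68 to 10.88. On the dimmer Cpt1a probesets 4 of the 6 highest arrays were shared with Dbp, and for Cpt2 1 of 6. Each group held 3 arrays of each set, no correlation was computed across them, and the hour of collection was not tested. With Dbp minus Arntl as a covariate Cpt1a differed by -0.08 (SE 0.07, adjusted p = 0.707 by limma), 9 of 10 members were higher, and 5 had an unadjusted p under 0.05 as higher, against 5.39% of all genes. Without control 6 and penicillin 1, 5 and 6, the 4 arrays with the highest Dbp, the members' median was 0.13 and the groups did not overlap for Acadl, Eci1 and Decr1, against 4.89% of all genes.

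The 10 genes whose pattern over the 12 arrays was most like the mean of the members, with group means subtracted, were ranked by Pearson r among 11889 other genes. The highest belonged to Pex13, a peroxisomal import protein (r 0.92, rho 0.92), and to Zfp750 (r 0.91, rho 0.84). Hsd17b4 (r 0.89), Cyp4a14, a fatty acid hydroxylase (r 0.88), the thioesterase Acot1 (r 0.87) and the peroxisomal thiolase Acaa1b (r 0.85) were among the 10 and are the 4 that belong to a list described above, and the remaining 4 were Ints11 (r 0.87), Rpe (r 0.86), the retinol saturase Retsat (r 0.86) and Tfb2m, a mitochondrial transcription factor (r 0.86). Between the groups Cyp4a14 differed by 1.49 (SE 0.59) and Acot1 by 0.63 (SE 0.29), neither of which passed by limma, while Ints11 differed by -0.06 and Tfb2m by -0.05.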

How the data were processed

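Per the submitters' processing notes, RMA gave the deposited probeset intensities. Software and settings: not given in the sources used here. In general, RMA makes the arrays' distributions alike, so a shift shared by most genes would not be seen. The intensities were linear (lowest 4.92), and log2 was taken here with no pseudocount. Of 45037 probesets other than controls, 34945 had 1 gene in the platform annotation. Symbols were updated through RefSeq (GRCm38.p6). Probesets with a mean under the median (4.73, log2) were left out, and each gene was read from its brightest probeset.

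Penicillin was compared with control (6 arrays each) by limma 3.58.1 in R 4.3.3, two-sided, with Benjamini-Hochberg adjustment over 11899 genes at 0.05. The fit was run on simulated data, drawn independently for each gene and array, as a check of the code. How often it finds changes as small as those of the members is not given here. Alternatives changed the filter, the normalization, the variance prior, the array weights, the choice of probeset, the block and the arrays left out. The number of arrays limits the precision, and no label says whether mice shared cages. The labels name no batch. They also do not say whether the replicate numbers pair the mice, and a pairing was not tested. Deviations of same-numbered arrays correlated at -0.26 to 0.39. By median absolute difference, the closest arrays across the groups were those numbered 4 (0.118), 2 (0.120) and 6 (0.126).

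The members and lists were chosen with earlier results of these data known. All members were named. Of each other list the rule named up to 3 genes with the smallest p and a set of fixed enzymes and regulators, and it named the 10 genes most like the members. Alb, Apoa1, Ass1, S100a9 and Etfbkmt lie outside that rule and were chosen after their values were seen.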

Additional observations from a re-analysis of the deposited data

How the results depend on the processing

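Of 26 alternatives, 22 were planned and 4 were added after the data were seen (2 that omit arrays which stood apart and 2 with a covariate). No gene passed in any of them, and no member reached the adjusted threshold. Of 260 member differences under alternatives, 254 kept their direction and their side of the threshold; the others were all of Cpt1a, whose main value of -0.02 turned to 0.027 with array weights and ran from -0.076 to 0.055 when single arrays were left out (lowest without control 5, highest without control 6); the cause was not tested. Members higher ran from 9 to 10, and members with an unadjusted p under 0.05 as higher from 3 to 6. The members' median ran from 0.086 (without control 6) to 0.168 (without penicillin 6). Members without overlap between the groups, 0 with all arrays, were 0 to 2 when single arrays were left out (Acadl and Decr1 without penicillin 6, against 0.63% of all genes; Acadl without control 1, 0.58%; Decr1 without control 4, 1.01%), 1 with quantile normalization repeated (Acadl, 0.546%), 1 without controls 1, 3 and 5 (Acadl, against 2% of all genes), and 3 without control 6 and penicillin 1, 5 and 6 (Acadl, Eci1 and Decr1, against 4.89% of all genes). Slc25a20 had an unadjusted p under 0.05 in 18 of the 26, and not when penicillin 5 or control 1, 3 or 5 was left out singly. It also did not with the replicate block or with the immediate early covariate. The same held without controls 1, 3 and 5 together, and without control 6 and penicillin 1, 5 and 6. With the replicate number as a block, 4 members had an unadjusted p under 0.05 (Acadl, Acadm, Eci1 and Decr1), against 5.69% of all genes as higher. In that fit the median was 0.13 and 0 genes passed. The labels do not say whether the numbers pair the mice, and 2 of 6 arrays correlated best with their own number. Standard errors of the members ran from 0.05 (Acaa2) to 0.11 (Cpt1a), with a median of 0.07, so for most members a change near 0.1 could not be told from none.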
